A study of Rattus norvegicus with 8 samples.

Results

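Alas2, Ahsp, Slc4a1, Epb42 and Rhd are transcripts of the red cell lineage, and here they were read in lung tissue of ventilated rats. They were taken as every probe set whose platform gene symbol is exactly one of these names, which gave 5 probe sets, 1 for each gene, out of 20242 on the array, or 5 of the 11218 genes that a probe set with a single symbol names. A probe set is the group of short probes that reads 1 transcript on an Affymetrix array. These genes were chosen with their values on these 8 arrays already known, so their own values are given below as a description and without a test. The Affymetrix control probe set for 5S ribosomal RNA is given beside them.

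The tissue was dorsal-caudal lung, taken from male Sprague-Dawley rats weighing 340 to 400 g. 3 rats were ventilated supine and 3 prone, with large breaths of 18 mL per kg (high tidal volume) at 40 breaths per minute with 0 cmH2O of end-expiratory pressure, for up to 3 hours after anaesthesia, a tracheotomy and a jugular cannula. 2 rats were not ventilated (NV), and no label used here says whether they were anaesthetised. Each title numbers its sample as a biological replicate, those of the supine samples read SVt where those of the prone samples read HVt, and the condition label gives both as high tidal volume.

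Red cells carry oxygen on haemoglobin, a protein of alpha and beta globin chains that each hold a haem group. Maturing red cells build haem and globin together, load both into a cell that loses its nucleus, and keep the last of this RNA for a short time as reticulocytes in the blood. Lung tissue holds much blood in its capillaries, so a lung sample includes transcripts of circulating cells. Alas2 encodes the erythroid form of the enzyme that makes aminolevulinate, the entry step of haem synthesis. Ahsp encodes a chaperone that holds free alpha globin. Slc4a1 encodes band 3, the chloride and bicarbonate exchanger of the red cell membrane, Epb42 encodes protein 4.2, which binds band 3, and Rhd encodes a protein of the Rh blood group complex. In a bulk sample, fewer cells of a type and less RNA per cell cannot be told apart.

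The RefSeq promoter table of the rat GRCr8 assembly held an entry for 3 of the 5 genes, Alas2, Epb42 and Rhd. Their 250 bases before the annotated start are shown because GATA1 and KLF1, the transcription factors that drive the red cell programme, bind short motifs in such regions. The search covered both strands for the GATA motif, spelled AGATAA or AGATAG, or with a first T in place of the A (TGATAA) or (TGATAG), and for the CACCC-type motif CCACACCC. Capitals mark the matches, which appear as their reverse complement where the motif lies on the other strand.
Alas2 (chrX:22895200-22895449, + strand): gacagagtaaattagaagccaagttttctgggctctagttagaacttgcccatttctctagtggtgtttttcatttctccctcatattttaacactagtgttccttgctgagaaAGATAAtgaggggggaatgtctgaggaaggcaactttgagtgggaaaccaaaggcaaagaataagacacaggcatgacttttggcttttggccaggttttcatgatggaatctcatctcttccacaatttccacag
Epb42 (chr3:128451684-128451933, - strand): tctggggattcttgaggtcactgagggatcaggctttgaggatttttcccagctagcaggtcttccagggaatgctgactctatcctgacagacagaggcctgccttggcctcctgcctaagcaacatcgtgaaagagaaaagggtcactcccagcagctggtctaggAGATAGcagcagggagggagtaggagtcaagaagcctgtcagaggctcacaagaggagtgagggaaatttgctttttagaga
Rhd (chr5:152370950-152371199, + strand): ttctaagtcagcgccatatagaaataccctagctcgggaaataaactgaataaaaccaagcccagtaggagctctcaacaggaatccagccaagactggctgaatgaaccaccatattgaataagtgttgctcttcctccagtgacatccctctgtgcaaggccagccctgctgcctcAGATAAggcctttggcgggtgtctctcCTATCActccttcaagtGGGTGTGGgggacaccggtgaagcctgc
Each of the 3 held a GATA match. It lay 136 to 131 bases before the start in Alas2 and 82 to 77 bases before it in Epb42, and Rhd held 2, at 72 to 67 and 45 to 40 bases. Rhd also held the CACCC-type match, 28 to 21 bases before its start. Over the 33469 upstream windows of this length in the table, 27.0% held a GATA match and 2.84% the CACCC-type match. A match is a run of letters and does not show that a factor binds there.

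Values are log2 GCRMA values, in which 1 unit is a doubling of signal. Probe sets were tested where they reached log2 5 on at least 2 arrays, which 16896 did, among them Alas2, Ahsp and Rhd. Epb42 and Slc4a1 each reached that level on 1 array and were not tested. Supine replicate 3 stood out by its RNA. The gap between the 3′ and 5′ probe sets for beta-actin was 9.10 log2 units there, against 3.16 to 4.64 on the other 7 arrays. Some results that include it are therefore also given without it, and the other supine values all include it. The 5S control read 5.23, 5.17 and 8.75 in supine replicates 1 to 3, 4.41, 10.35 and 9.88 in prone replicates 1 to 3, and 5.13 and 7.51 in the NV replicates. The 18 bacterial and phage spike-in controls had a median of 11.99, 11.58 and 11.22 on supine replicate 3 and prone replicates 2 and 3, and of 10.03 to 10.98 on the other arrays.

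Alas2 was the member with the clearest separation between ventilated and non-ventilated lungs. It read 8.44, 9.47 and 10.14 in the supine lungs, 9.60, 10.86 and 11.03 in the prone lungs, and 7.10 and 7.08 in the NV lungs. Every ventilated lung lay above both NV lungs, as was so for 20.0% of all tested probe sets in the supine and 20.9% in the prone comparison. Supine and prone lungs overlapped for Alas2 and for the other 4 genes, and groups did not overlap in that comparison for 5.89% of tested probe sets. The means were 9.35 ± 0.86 in supine (SD, n = 3), 10.50 ± 0.78 in prone (n = 3) and 7.09 ± 0.02 in NV lungs (n = 2). The difference was 2.26 ± 0.60 for supine minus NV (log2, SE of the limma fit), a 4.78-fold higher signal, and 3.41 ± 0.60 for prone minus NV, 10.6-fold. Supine minus prone was -1.15 ± 0.53. Without supine replicate 3 the supine difference from NV was 1.86, and the supine minus prone difference was -1.60 without prone replicate 1 and -0.70 without supine replicate 1. From high to low the order was prone, supine, NV, and prone and supine lay closer together than either did to NV.

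**Figure D1:**
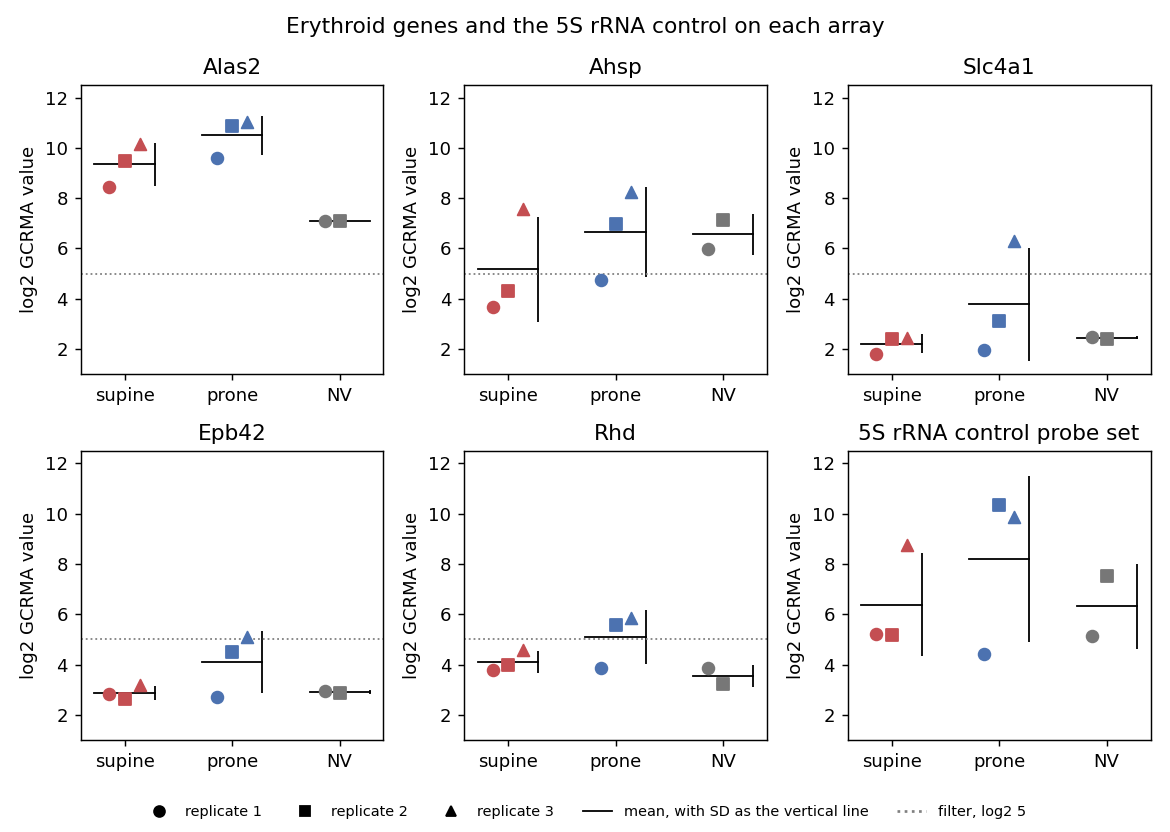
Log2 GCRMA value (vertical axis, 1 scale for all panels) of each gene and of the 5S control on each array, by group. Each point is 1 array, its shape the replicate number, the horizontal line the group mean and the vertical line its SD, and the dotted line the log2 5 filter. Alas2 lies above 8 in all 6 ventilated lungs and near 7 in both NV lungs, while Slc4a1, Epb42 and Rhd pass log2 5 only on prone replicates 2 or 3.

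Ahsp did not follow Alas2 across the groups. It read 3.68, 4.29 and 7.56 in the supine lungs, 4.74, 6.98 and 8.25 in the prone lungs, and 5.98 and 7.13 in the NV lungs. All 3 groups overlapped, and the arrays of each ventilated group spanned more than 3 log2 units. The difference was -1.38 ± 1.34 for supine minus NV, 0.10 ± 1.34 for prone minus NV and -1.48 ± 1.20 for supine minus prone. The supine difference from NV was -2.57 without supine replicate 3 and -0.63 without supine replicate 1. Supine minus prone was -2.67 without supine replicate 3 and -0.68 without prone replicate 3. The prone one was -0.69 without prone replicate 3, 1.06 without prone replicate 1 and -0.89 with the replicate number as a block, so its sign is unsettled.

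Rhd was low on most arrays. It read 3.77, 3.97 and 4.58 in the supine lungs, 3.86, 5.59 and 5.86 in the prone lungs, and 3.87 and 3.24 in the NV lungs. Prone replicates 2 and 3 were the only arrays above 5, and prone replicate 1 lay within the NV range. Rhd thus passed the filter only through the group where it is high. Its values on the other arrays, between 3.24 and 4.58, cannot be separated from background. Rhd stood at 0.55 ± 0.62 for supine minus NV, or 0.31 without supine replicate 3. For prone minus NV it stood at 1.55 ± 0.62, and supine minus prone was -1.00 ± 0.55, or -1.62 without prone replicate 1 and -0.62 without prone replicate 3.

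The band 3 pair was close to the low end of the scale. Epb42 read 2.85, 2.63 and 3.18 in the supine lungs, 2.70, 4.50 and 5.09 in the prone lungs, and 2.97 and 2.86 in the NV lungs. Slc4a1 read 1.80, 2.40 and 2.45 in the supine lungs, 1.94, 3.12 and 6.28 in the prone lungs, and 2.48 and 2.40 in the NV lungs. For both genes prone replicates 2 and 3 were the highest arrays, and the other 6 arrays lay together. The prone minus NV difference was 1.18 for Epb42 and 1.34 for Slc4a1, and without prone replicate 3 these were 0.69 and 0.09. The supine minus NV differences were -0.03 and -0.22, and -0.18 and -0.33 without supine replicate 3. No detection calls were used, so values this low cannot be separated from background.

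**Figure D2:**
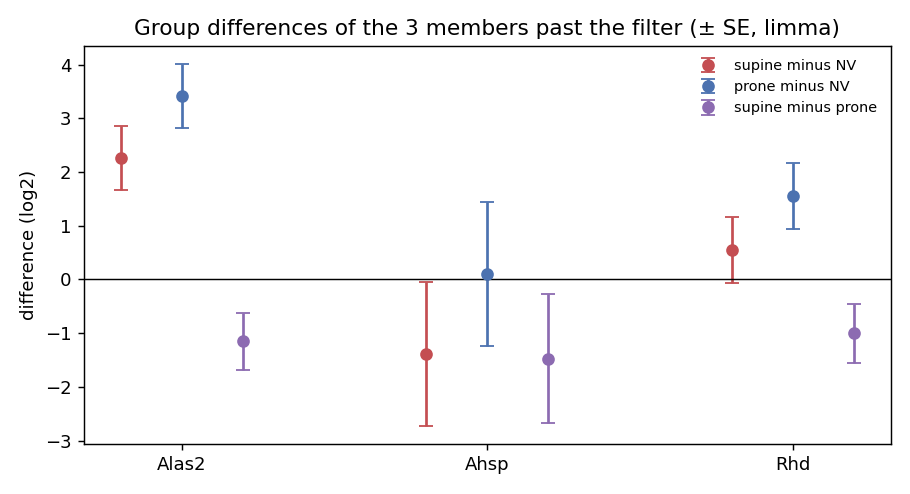
Difference between group means (vertical axis, log2) for the 3 genes that passed the filter, with the SE of the limma fit as error bars, by comparison. The Alas2 differences from NV are 2.26 and 3.41, and Rhd stands at 0.55 and 1.55. Rhd passed the filter only through prone replicates 2 and 3. The error bars of Ahsp in prone minus NV and of Rhd in supine minus NV cross 0.

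Over all tested probe sets, 0.0533% were called in supine minus NV and 0.0533% in prone minus NV (limma, Benjamini-Hochberg adjusted p under 0.05), 9 in each, with 1 higher and 8 lower. With the replicate number as a block both counts were 0. Of the prone calls, 1 of 9 was higher, against 3 of 12 with arrays centred on their medians and 4 of 13 after another quantile normalization. In supine minus prone 0 probe sets were called, and 691 (4.09%) had an unadjusted p under 0.05. The median difference over all tested probe sets was -0.07 in supine minus NV, -0.12 in prone minus NV and 0.03 in supine minus prone. Both comparisons with NV share the same 2 NV arrays.

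The genes shared their high arrays. Alas2, Rhd and Epb42 all had their 3 highest readings on prone replicates 3 and 2 and supine replicate 3, in that order for each gene. Ahsp was highest on prone replicate 3 and supine replicate 3, followed by NV replicate 2. Pearson's r over the 8 arrays was 0.94 for Epb42 with Rhd, 0.88 for Slc4a1 with Epb42, 0.85 for Alas2 with Rhd and 0.31 for Alas2 with Ahsp. After the group means were removed, Alas2 with Ahsp came to 0.89. Set against the prone array of the same replicate number, the supine array read lower in all 3 pairs for 4 of the 5 genes. The supine minus prone differences of replicates 1, 2 and 3 were -1.17, -1.40 and -0.89 for Alas2 and -1.06, -2.69 and -0.69 for Ahsp. They were -0.09, -1.62 and -1.28 for Rhd, -0.14, -0.72 and -3.84 for Slc4a1, and 0.15, -1.87 and -1.91 for Epb42. Over all tested probe sets 12.2% were lower in all 3 pairs, and nothing is read from the members against this share, since their values chose them. The correlations are descriptions of 8 points that share arrays, normalization and group differences.

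The 5S control was high on the same 3 arrays. Its r over the 8 arrays was 0.85 with Ahsp, 0.84 with Epb42, 0.79 with Rhd, 0.65 with Slc4a1 and 0.59 with Alas2. After the group means were removed it was 0.90 with Ahsp, 0.84 with Epb42, 0.83 with Alas2, 0.81 with Rhd and 0.56 with Slc4a1. Among the genes of the lists below, r with the 5S control over the 8 arrays ran from -0.89 to 0.92. The ends were the lymphocyte marker Nkg7 and the late maturation gene Xpo7, and the platelet marker Itga2b had 0.77. A high r with the 5S control was thus not particular to the members. For Alas2 the separation from NV was also present where the 5S control was low: supine replicates 1 and 2 and prone replicate 1 read 5.23, 5.17 and 4.41 for the 5S control, and 8.44, 9.47 and 9.60 for Alas2, against 7.10 on NV replicate 1, whose 5S value was 5.13. Rhd, Epb42 and Slc4a1 on those 3 arrays were at or near the NV values. Ahsp read 3.68, 4.29 and 4.74 on them, below its 5.98 on NV replicate 1. The part that whatever sets the 5S and spike-in levels has in these values was not tested.

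**Figure D3:**
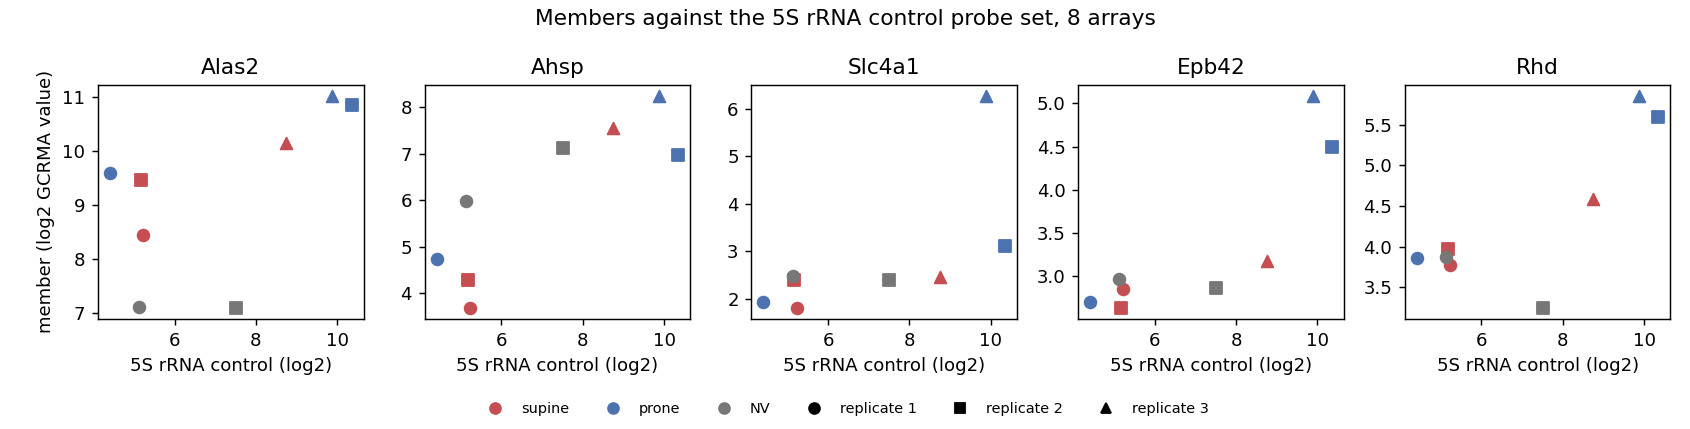
Log2 value of each gene (vertical axes, scaled per gene) against that of the 5S rRNA control (horizontal axis) on the 8 arrays, with colour for the group and shape for the replicate. Prone replicates 2 and 3 lie at the upper right for Alas2, Epb42 and Rhd, while for Alas2 the 3 ventilated arrays with low 5S values also lie above both NV arrays.

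The globin genes are the partners of haem. Of 16 globin symbols searched, 2 had a tested probe set with a single symbol. Hba-a3, an alpha globin gene, read 11.59, 11.66 and 12.40 in the supine lungs, 11.85, 12.96 and 12.88 in the prone lungs, and 10.41 and 10.04 in the NV lungs. All 6 ventilated lungs lay above both NV lungs, as was so for 20.0% of all tested probe sets in supine and 20.9% in prone lungs. Hba-a3 stood at 1.66 ± 0.44 in supine minus NV (adjusted p = 0.22) and 2.34 ± 0.44 in prone minus NV (adjusted p = 0.0963), and did not pass. Without supine replicate 3 the supine difference was 1.40.

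Hbb, a beta globin gene, was near the top of the scale, at 13.62, 14.40 and 14.80 in the supine lungs, 14.37, 14.75 and 14.94 in the prone lungs, and 14.17 and 14.28 in the NV lungs. Its prone minus NV difference was 0.46 ± 0.40 (adjusted p = 0.585) and its supine minus NV difference 0.05 ± 0.40 (adjusted p = 0.959), which was -0.22 without supine replicate 3. A further 6 tested probe sets carried several globin symbols and were not assigned to a gene. Their prone minus NV differences ran between 0.57 and 1.99 and their supine minus NV differences between 0.43 and 1.18. Both upper ends came from the probe set for Hbq1b and Hbq1, which was low, at 2.75 to 5.96 over the arrays. The other probe sets reached at most 1.48 in prone minus NV and 0.82 in supine minus NV. All 6 had prone lungs above NV lungs without overlap, and 4 had supine lungs above NV lungs, beside the shares of 20.9% and 20.0% over all tested probe sets. Globin genes have near-identical copies that probes can share, so these probe sets are not independent and the copy each one reads is uncertain.

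The rest of haem synthesis and iron supply had medians near 0. Of 24 genes listed, 18 were tested and 0 were called in any comparison. At an unadjusted p under 0.05, 3 were higher and 1 lower in supine minus NV (7.18% and 8.05% of all tested probe sets), and 1 higher and 1 lower in prone minus NV (7.67% and 10.0%). The list median was 0.03 in supine minus NV and 0.09 in prone minus NV. Slc25a37, mitoferrin-1, which brings iron into mitochondria for haem, read 8.08, 7.52 and 8.99 in the supine lungs, 9.02, 9.03 and 8.72 in the prone lungs, and 6.18 and 6.09 in the NV lungs. Every ventilated lung was above both NV lungs. Of the 18 tested genes, 6 had supine and 3 had prone lungs above NV lungs without overlap, beside 20.0% and 20.9% of all tested probe sets. Slc25a37 stood at 2.06 ± 0.44 in supine minus NV (adjusted p = 0.182) and 2.79 ± 0.44 in prone minus NV (adjusted p = 0.0781). Without supine replicate 3 its supine minus NV difference was 1.66. Alad, the next enzyme after the aminolevulinate step, stood at -1.22 ± 0.62 and -1.77 ± 0.62 (adjusted p = 0.383 and 0.209), the opposite sign to Alas2. Without supine replicate 3 its supine minus NV difference was -0.75. Tfrc, the transferrin receptor, stood at 1.01 ± 0.34 in supine minus NV (adjusted p = 0.268).

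Of 29 other red cell membrane genes listed, 16 were tested and 0 called in any comparison. Of the 16, 11 lay lower in supine minus NV and 12 in prone minus NV, beside 53.8% and 56.5% of all tested probe sets, and the medians were -0.59 and -0.46. At an unadjusted p under 0.05, 2 were higher and 3 lower in supine minus NV (7.18% and 8.05% of all tested probe sets), and 2 higher and 1 lower in prone minus NV (7.67% and 10.0%). Stom, which encodes the membrane protein stomatin, stood at 1.27 ± 0.32 in prone minus NV (adjusted p = 0.127). At the other end were Cd36, a fatty acid receptor also present on endothelium, at -2.18 ± 0.97 in supine minus NV (adjusted p = 0.341), and the nucleoside transporter gene Slc29a1 at -2.10 ± 1.22 in prone minus NV (adjusted p = 0.413). Without supine replicate 3 the Cd36 difference was -1.38. Slc29a1 read 7.01 on prone replicate 1 and 10.11 and 10.60 on the other prone arrays.

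Transcription factors and receptors of the lineage gave 12 tested of 17 listed, with 0 called in any comparison and 0 at an unadjusted p under 0.05 in either comparison with NV, and medians of -0.04 in supine minus NV and 0.05 in prone minus NV. Nfe2, a globin gene activator also expressed in other blood cells, stood at 1.79 ± 1.13 and 2.18 ± 1.13 (adjusted p = 0.461 and 0.363). It was highest on supine replicate 1 and prone replicate 1, at 11.03 and 11.34, arrays on which Rhd, Epb42 and Slc4a1 were low. Myb stood at -1.63 ± 1.42 in supine minus NV and Bcl11a at -1.00 ± 0.85 in prone minus NV (adjusted p = 0.583 and 0.575).

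Genes of late red cell maturation gave 21 tested of 31 listed, with 0 called in any comparison. At an unadjusted p under 0.05, 1 was higher and 1 lower in supine minus NV, and 3 higher and 1 lower in prone minus NV, beside the same shares of 7.18% and 8.05%, and 7.67% and 10.0%. The medians were -0.05 and 0.25. Hemgn, which encodes the erythroid nuclear protein hemogen, read 2.50, 2.71 and 4.84 in the supine lungs, 2.66, 6.25 and 7.21 in the prone lungs, and 2.58 and 2.50 in the NV lungs. It was high on the 3 arrays on which the 5S control was highest. Its prone minus NV difference was 2.83 ± 1.31 (adjusted p = 0.312), 4.19 without prone replicate 1 and 1.91 without prone replicate 3. Prone replicates 2 and 3 were its only arrays above the filter level, so it was tested only through the group where it is high. Its NV values are too low to be separated from background. Bcl2l1, the survival factor that encodes Bcl-xL, stood at 1.28 ± 0.29 in supine minus NV and 1.59 ± 0.29 in prone minus NV (adjusted p = 0.194 and 0.0955). Car2, a carbonic anhydrase also made in other tissues, stood at -1.20 ± 0.53 in supine minus NV (adjusted p = 0.342), and Ube2l6, a conjugating enzyme for the ubiquitin-like protein ISG15, at -1.00 ± 0.66 in prone minus NV (adjusted p = 0.479).

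**Figure D4:**
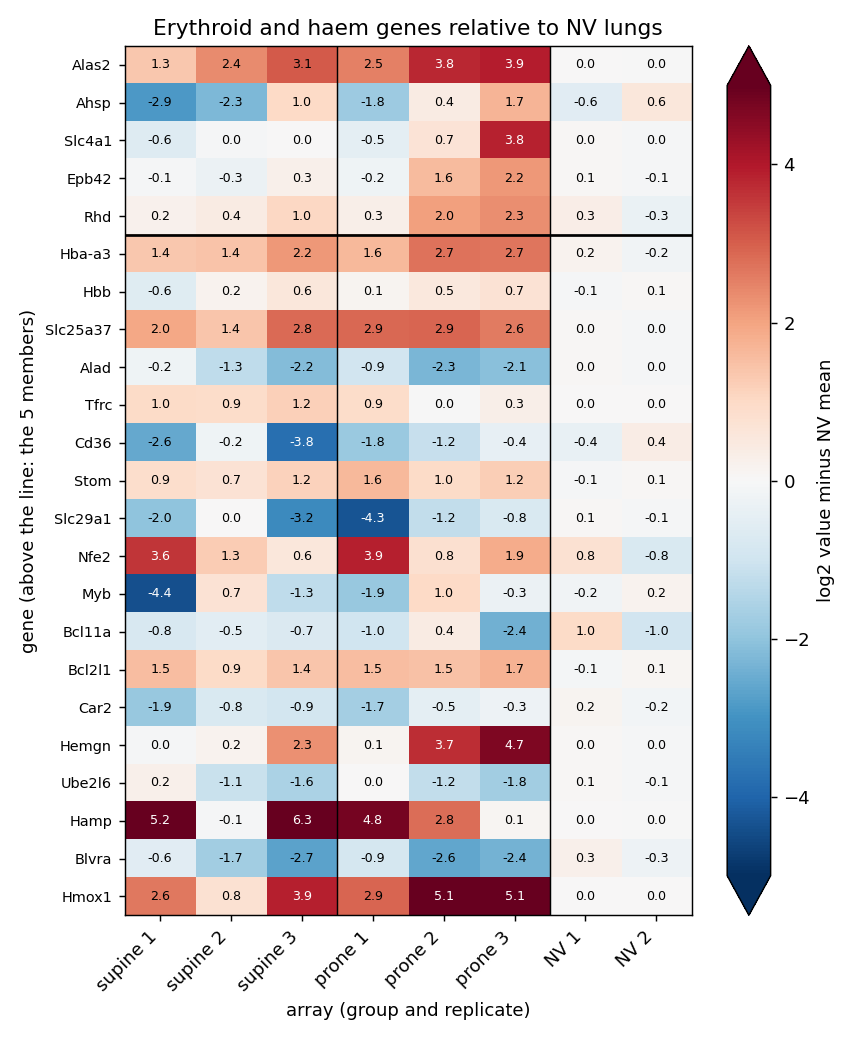
Log2 value minus the NV mean (colour and printed number) on each array for the 5 erythroid genes, above the line, and for the genes that the naming rule took from the erythroid and haem lists, below it. Alas2, Hba-a3, Slc25a37, Stom, Nfe2, Bcl2l1 and Hmox1 are above the NV mean on all 6 ventilated arrays. Hemgn is above it by 2.3 or more only on supine replicate 3 and prone replicates 2 and 3.

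Haem breakdown was read from 10 tested genes of 15 listed, with 0 called in any comparison. At an unadjusted p under 0.05, 1 was higher and 0 lower in supine minus NV (7.18% and 8.05% over all tested probe sets), and 2 higher and 1 lower in prone minus NV (7.67% and 10.0%), with medians of 0.79 and 0.11. The sign of the prone median is unsettled: leaving out prone replicate 1 gave -0.50, and leaving out prone replicate 3 gave 0.56. Hmox1, which opens the haem ring, read 11.79, 9.93 and 13.03 in the supine lungs, 12.04, 14.26 and 14.22 in the prone lungs, and 9.14 and 9.15 in the NV lungs. The prone minus NV difference was 4.36 ± 0.98 (adjusted p = 0.113). Blvra, a biliverdin reductase of the next step, stood at -1.65 ± 0.71 and -1.95 ± 0.71 (adjusted p = 0.33 and 0.221). Without supine replicate 3 its supine minus NV difference was -1.15. Hamp, the gene of the iron hormone hepcidin, read 6.97, 1.76 and 8.16 in the supine lungs, 6.62, 4.62 and 1.92 in the prone lungs, and 1.83 and 1.80 in the NV lungs.

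Markers of other blood cells were read on the same arrays, and their lists differed from each other in direction. The 9 tested neutrophil markers all lay higher in both comparisons with NV, with medians of 2.44 (supine) and 2.55 (prone). The 12 tested lymphocyte markers all lay lower, with medians of -1.61 and -2.74. Of all tested probe sets, 53.8% lay lower in supine minus NV and 56.5% in prone minus NV. At an unadjusted p under 0.05, 5 and 6 neutrophil markers were higher (7.18% and 7.67% of all tested probe sets). At that level 4 and 9 lymphocyte markers were lower (8.05% and 10.0%), and 0 of either list went the other way. The 9 tested platelet markers had medians of -0.13 and 0.09. Without supine replicate 3 the supine minus NV median was 3.13 for neutrophil and -0.23 for platelet markers. The log2 of the summed signal of the platelet markers ran between 13.15 and 13.77 in supine, 12.96 and 14.41 in prone, and 13.88 and 14.03 in NV lungs. Vwf and Gng11 weigh most in that sum, so it is not read as platelet content. Their supine, prone and NV means were 12.27, 12.49 and 12.58 for Vwf, and 11.53, 11.91 and 12.70 for Gng11. The log2 of the summed signal of the neutrophil markers ran between 15.25 and 16.89 in supine, 15.03 and 17.06 in prone, and 13.73 and 13.82 in NV lungs. Supine replicate 1 and prone replicate 1 had the highest neutrophil sums and the lowest Alas2 of their groups. For lymphocyte markers the sum ran between 10.46 and 12.15 in supine, 9.08 and 10.99 in prone, and 11.79 and 13.12 in NV lungs. Among the lists, 0 genes of these 3 were called. Of 14 lung tissue markers listed, 13 were tested, with 0 called and medians of -0.19 in supine minus NV and -0.24 in prone minus NV. The part of cell composition in the member values was not tested.

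The genes whose profile over the 8 arrays was most like that of a member were named by Pearson's r, among tested probe sets with 1 symbol. For Alas2 they were Slc5a3, a myo-inositol transporter gene (r = 0.99), Usp24 (r = 0.98) and Cacybp (r = 0.98). Slc5a3 averaged 8.50 ± 1.45 in supine, 10.40 ± 1.56 in prone and 5.43 ± 0.38 in NV lungs (SD, n = 3, 3 and 2). For Rhd they were Sp1 (r = 0.98), Nfatc3 (r = 0.98) and Hemgn (r = 0.97). For Ahsp they were Aqr (r = 0.95), Mdga2 (r = 0.94) and Sh3d19 (r = 0.93), and Aqr varied little, averaging 9.86 ± 0.18 in supine, 9.91 ± 0.15 in prone and 9.89 ± 0.04 in NV lungs. These names are the top of a search over most of the array, with 8 points to each profile.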

How the data were processed

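Total RNA (300 ng per sample) was labelled with biotin and hybridised to 1-colour Affymetrix rat arrays. The values the authors deposited are log2 values, as their range shows, and per the submitters' processing notes they are GCRMA summaries made with Partek 6.5. No source used here states a filter, a further centring or the authors' test. The number of arrays limits the precision.

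The 28 control probe sets were set aside. The 16896 probe sets that reached log2 5 on 2 or more of the 8 arrays were tested with limma 3.58.1 in R 4.3.3 (1 mean per group, 5 residual and 2.51 prior degrees of freedom), two-sided, with Benjamini-Hochberg adjustment over all of them. The fit was tested on simulated data. Each list gene was read by its tested probe set with 1 symbol and the highest mean. The platform annotation gave the symbols, of which RefSeq changed 0 among 164 checked. The p-values set each group difference against the spread between samples within groups, pooled over the groups and moderated over all tested probe sets.

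Named were all members, globins with 1 symbol, the largest rise and fall of each list in each comparison with NV (or genes called), and the 3 genes most like each tested member. Members, lists and motifs were chosen with earlier results of these data known, and the lists overlap in part.

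Arrays of the same replicate number deviated together from their group means (r = 0.11 to 0.72 over the 7 same-numbered pairs). The number was therefore used as a block in an alternative fit. The main fit takes no pairing, so its SEs and p-values do not account for one. With 2 NV arrays their deviations mirror each other, so a positive r with one goes with a negative r with the other. Differently numbered pairs ran from -0.59 to 0.40, and supine replicate 2 went with prone replicate 3 at 0.40. A pairing by number comes from the data, since no label states a shared day or litter. Alternatives were a filter of log2 7, no filter, centred or quantile normalized arrays, a fit to only the compared groups, an intensity trend, the replicate block, each array left out, and averaging the probe sets of a gene.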

Additional observations from a re-analysis of the deposited data

How the results depend on the processing

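Counts of called probe sets depended on the processing and on single arrays. Against the main 9 and 9 in supine minus NV and prone minus NV, they were 0 and 0 with a filter of log2 7, 0 and 0 with an intensity trend, 0 and 0 with the replicate block, 18 and 35 with no filter, and 0 and 119 in a fit to only the 2 groups compared. With 1 array left out they ran from 0 to 153 in supine minus NV (153 without supine replicate 2, 0 without any other) and from 0 to 115 in prone minus NV (115 without prone replicate 1; 90, 65 and 5 without supine replicates 3, 2 and 1; 0 without any other), and from 0 to 3 in supine minus prone, 3 without prone replicate 1. Supine replicate 3 is the array with the wide 3′ to 5′ gap, and without it the supine minus NV list medians were 0.04 for haem synthesis, -0.44 for membrane genes, 0.07 for transcription factors, -0.05 for maturation and 0.78 for haem breakdown.

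Of the 165 member differences recomputed, 7 changed sign, all for Ahsp in prone minus NV or Epb42 in supine minus NV, and Slc4a1 in prone minus NV ran from 0.09 to 2.26 with 1 array left out. Of the 360 list medians recomputed, 22 changed sign and 13 moved by more than the spread between replicates. Of the 594 differences recomputed for named list genes, 4 came to pass, Hba-a3 in prone minus NV without prone replicate 1 (2.70) and Slc25a37 in prone minus NV (2.79) in the fit to 2 groups and without supine replicate 2 or 3. 9 changed sign: Hbb in supine minus NV (-0.15 with the replicate block, -0.01 without supine replicate 2, -0.22 without supine replicate 3, -0.01 without NV replicate 1; -0.22 to 0.38 over all arrays left out), Camp in supine minus NV (-0.42 without supine replicate 1, to 1.84), Lcn2 in prone minus NV (-0.56 without prone replicate 1, to 1.44), and Gzma in supine minus NV (0.50 with the replicate block, 0.07 without supine replicate 2, 0.37 without NV replicate 1; from -1.14). The replicate block changed no other call. Each member has 1 probe set, so the mean of probe sets was run for lists only. The cause of these shifts was not tested.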

Other observations

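A few regulators and membrane genes of the red cell lineage are given here as values, chosen after their values were seen. Klf1, which encodes an activator of globin and haem genes, read 2.16, 2.14 and 5.33 in the supine lungs, 2.17, 2.54 and 5.72 in the prone lungs, and 2.25 and 2.27 in the NV lungs. It was thus high on supine replicate 3 and prone replicate 3, the arrays with the highest Ahsp values. Its differences from NV were 0.95 ± 1.28 and 1.22 ± 1.28 (supine, prone; adjusted p = 0.73 and 0.656). Gata1, the lineage's main transcription factor, stayed below the filter on every array, between 2.28 and 4.10. Ank1, which encodes the ankyrin that anchors band 3, was also below the filter on every array. It averaged 2.22 ± 0.18 in supine, 2.32 ± 0.17 in prone and 4.30 ± 0.47 in NV lungs (SD, n = 3, 3 and 2). The ventilated means lay below NV, but values this low cannot be separated from background.

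Bpgm, which makes the red cell metabolite that loosens oxygen binding, read 10.19, 10.41 and 10.69 in the supine lungs, 10.43, 11.10 and 11.14 in the prone lungs, and 9.78 and 9.90 in the NV lungs. Ventilated lungs lay above NV lungs without overlap, as for 20.0% (supine) and 20.9% (prone) of all tested probe sets. Bpgm stood at 0.58 ± 0.33 in supine minus NV and 1.05 ± 0.33 in prone minus NV (adjusted p = 0.422 and 0.181). Alas1, the form of the haem entry enzyme used outside red cells, read 9.90, 11.27 and 11.00 in the supine lungs, 10.72, 12.18 and 12.32 in the prone lungs, and 10.20 and 10.64 in the NV lungs, and stood at 0.31 ± 0.60 and 1.32 ± 0.60 (adjusted p = 0.82 and 0.305).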
